A study of Mus musculus with 13 samples.

Results

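The 10 genes that regulate or mark the epithelial-mesenchymal transition (EMT) described here were Snai1, Snai2, Zeb1, Zeb2, Twist1, Twist2, Cdh1, Cdh2, Vim and Epcam. They were chosen by symbol, without regard to their values, in 6 lists of ChIP-seq peaks paired with genes. Of 18562 genes with a peak in any of the lists, 8 belonged to the panel, and Twist2 and Cdh2 were in none of the 6 lists. The cells were 4T1, a mouse mammary tumor line of BALB/cJ origin that metastasizes to the lung. Nup210 KO cells were compared with sg-Ctrl cells. The KO cells carried a CRISPR guide against Nup210, a transmembrane nucleoporin of the nuclear pore, and the sg-Ctrl cells a non-targeting guide. The guides were delivered by lentivirus, Cas9 was supplied transiently by adenovirus, and the KO line was a single clone (N13). H3K4me3, a mark of active promoters, and H3K27me3, the Polycomb mark of repressed chromatin, were profiled in both lines. NUP210 and the nuclear pore complex (NPC, antibody mAb414) were profiled in sg-Ctrl cells only. Each condition had 1 library, so no difference below has a replicate check, and every interval covers counting error only.

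In EMT, epithelial cells lose their junctions and gain motility and the cytoskeleton of mesenchymal cells. The zinc finger factors SNAI1 and SNAI2, the zinc finger and homeodomain factors ZEB1 and ZEB2, and the basic helix-loop-helix factors TWIST1 and TWIST2 drive this switch. SNAI and ZEB factors bind E-box sequences in epithelial promoters and recruit corepressors, and the gene for E-cadherin, Cdh1, is their classical target. Cdh2 encodes N-cadherin, whose gain at the expense of E-cadherin is known as the cadherin switch. Vim encodes the intermediate filament protein vimentin, and Epcam an epithelial adhesion molecule of the cell surface. The ZEB factors and the miR-200 microRNAs repress each other.

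The H3K4me3 lists held 11018 peaks in sg-Ctrl and 10854 in KO, called within 4 kb of a transcription start site (TSS). The H3K27me3 lists held 9555 and 8874 peaks on gene bodies. The KO library was 1.27 times the size of the sg-Ctrl library for H3K4me3 and 3.16 times for H3K27me3. Reads were therefore divided by library size, with the IgG library as the unit. H3K4me3 reads per kb of TSS peak were lower in KO for 88.7% of the 12197 genes with a peak in both lists, with a median log2 ratio of -0.50, and values for single genes are also given relative to it. For the total of scaled reads in the peak the median log2 ratio was -0.32. When the libraries were instead scaled to the reads of shared peaks, the median per kb was -0.08. At the TSS of Nup210 itself, sg-Ctrl had 885 reads and KO had 913, a mark that does not test the knockout. The mammary epithelial keratin genes Krt8, Krt18 and Krt14 had an H3K4me3 TSS peak in both libraries and Krt5 did not, so 3 of 4 such markers were marked, with a summed level of 681 scaled reads per kb against 497 in KO. Of 5 fibroblast markers, Pdgfra and Col1a1 had a peak in both libraries (638 and 533 reads per kb summed). None of the 4 leukocyte and 3 endothelial markers did.

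An H3K4me3 peak near the TSS was listed for 6 of the 10 genes, Snai1, Zeb2, Twist1, Cdh1, Vim and Epcam, in both libraries, where 67.1% of listed genes had one in sg-Ctrl and 67.0% in KO. No member had such a peak in 1 library alone. The 2 epithelial genes differed from each other. Cdh1 was the 1 member whose reads per kb were higher in KO, over a narrower peak with fewer scaled reads in total, and Epcam stood near the median of all genes per kb but not in total reads.

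At Cdh1 (NM_009864, chr8:106603368-106670246, plus strand, mm10), which encodes the E-cadherin of adherens junctions, 4533 H3K4me3 reads were counted in sg-Ctrl and 4666 in KO. The peak spanned 9.4 kb in sg-Ctrl, from 1.17 kb upstream of the TSS to 8.23 kb inside the gene, and 4.8 kb in KO, from 1.57 kb upstream to 3.23 kb inside. The sg-Ctrl peak was wider than those of 97.2% of genes. Scaled by library size, Cdh1 went from 455 reads per kb of peak in sg-Ctrl to 721 in KO, and the log2 ratio was 0.67 (95% interval 0.61 to 0.73), or 1.17 above the median of all genes. A higher ratio was found for 167 of 12197 genes. The direction depends on the measure, because the total of reads in the peak was lower in KO, with a log2 ratio of -0.30 (-0.36 to -0.24). In total reads Cdh1 lay 0.02 above the median of all genes, higher than 52.0% of them, so it stood apart per kb only. By the deposited fold over IgG, Cdh1 went from 25.9 to 45.0. Of the 131 genes whose peak narrowed at least as much as that of Cdh1, a group defined after the values were seen, the median log2 ratio per kb was -0.33 and 13 had a higher ratio than Cdh1. A separate KO peak inside the gene, over 4 kb from the TSS, would not be in the lists.

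At Epcam (NM_008532, chr17:87635979-87651127, plus strand), 2538 reads were counted in sg-Ctrl and 1498 in KO. The peak was 4.4 kb wide in sg-Ctrl and 3.0 kb in KO. Per kb of peak this was 544 scaled reads against 371 in KO, a log2 ratio of -0.55 (-0.65 to -0.46), which is 0.05 below the median of all genes. On this scale the difference at Epcam was close to that of the median gene. In total reads the log2 ratio was -1.11, or -0.78 relative to the median of all genes, and 5.23% of genes had a lower one. In contrast, the fold over IgG was 40.5 in sg-Ctrl, on 59 IgG reads, and 48.3 in KO, on 23 IgG reads in the narrower peak. By this fold alone was Epcam higher in KO, so its direction depends on whether the fold is used.

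Vim (NM_011701, chr2:13574311-13582826, plus strand), the vimentin gene, had 1925 reads in sg-Ctrl and 1209 in KO. Its peak was 5.8 kb wide in sg-Ctrl and 4.4 kb in KO, and the scaled level was 313 reads per kb against 204, a log2 ratio of -0.62 (-0.72 to -0.51). This lies 0.12 below the median of all genes. In total reads the log2 ratio was -1.02, or -0.69 relative to the median of all genes, and 7.11% of genes had a lower one.

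Snai1 (NM_011427, chr2:167538227-167542811, plus strand) was the member with the lowest ratio per kb. It had 2052 reads in sg-Ctrl and 1119 in KO, over peaks of 4.2 and 4.0 kb that both started 0.83 kb upstream of the TSS. Per kb of peak there were 461 scaled reads against 208 in KO, a ratio of 0.451 and a log2 ratio of -1.15 (-1.26 to -1.04). Snai1 was lower in KO by every measure tried, and 4.93% of genes had a ratio as low or lower. It lay 0.65 below the median of all genes, and under scaling by shared peaks its log2 ratio was -0.73, short of a 2-fold difference. Its level ranked above 38.4% of genes in sg-Ctrl and above 13.97% in KO.

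Twist1 (NM_011658, chr12:33957671-33959831, plus strand) had the lowest H3K4me3 level of the members in both libraries, with 1041 reads in sg-Ctrl and 900 in KO. The peaks were 4.4 and 3.6 kb wide. Its scaled level was 223 reads per kb against 186 in KO, a log2 ratio of -0.27 (-0.40 to -0.14), which is 0.23 above the median of all genes. In total reads the log2 ratio was -0.56 (-0.69 to -0.43). The fold over IgG moved the other way, from 98.1 to 167, but it rests on 10 IgG reads in sg-Ctrl and 4 in KO. With scaling to shared peaks the log2 ratio per kb was 0.16, so no direction is given for Twist1.

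Zeb2 (NM_015753, chr2:44983634-45113279, minus strand) had 2147 reads in sg-Ctrl and 2721 in KO. Its peak lay downstream of the listed TSS, from 1.48 to 5.08 kb in sg-Ctrl and from 1.08 to 5.88 kb in KO, and the lists pair it with Gm13476 as well. In RefSeq (GRCm38.p6) another Zeb2 start site, at chr2:45110277, falls inside both peaks, 3002 bp from the listed one. Per kb there were 562 scaled reads against 421 in KO, a log2 ratio of -0.42 (-0.50 to -0.34), or 0.08 above the median of all genes. In total reads the log2 ratio was 0.00 to 2 decimals.

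Across the 6 members the median log2 ratio per kb was -0.49, against -0.50 for all genes. In total reads the median was -0.79 for the members and -0.32 for all genes. The members were thus near all genes per kb but lower in total reads. Per kb, 5 of 6 members were lower in KO, beside a background of 88.7%. On that measure Snai1, 1 of 6, was at least 2-fold lower, where the background was 9.66%. None was at least 2-fold higher, where it was 0.525%. The peak was narrower in KO at 5 of 6 members, all but Zeb2, and at 27.1% of all genes.

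**Figure D1:**
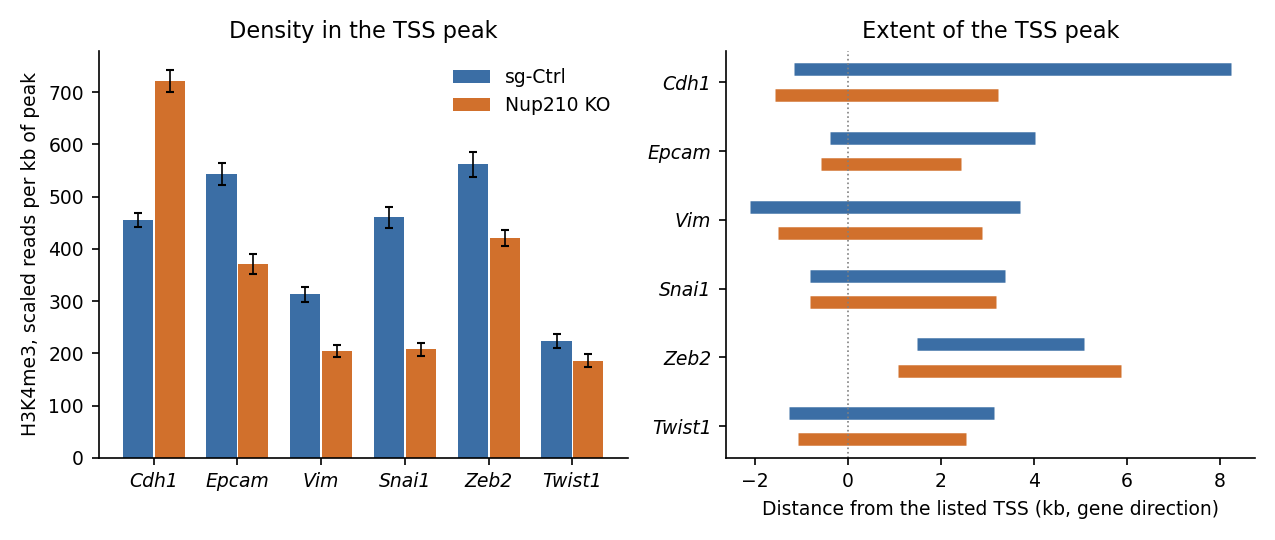
H3K4me3 at the TSS of the 6 members with a peak in both lists. The bars give reads per kb of peak, scaled by library size, in sg-Ctrl and KO with 95% Poisson intervals of the count, and the horizontal lines give the extent of each peak in kb from the listed TSS. Cdh1 was at 455 in sg-Ctrl and 721 in KO, over a peak of 9.4 and 4.8 kb with fewer scaled reads in total in KO, and Snai1 was at 461 and 208.

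**Figure D2:**
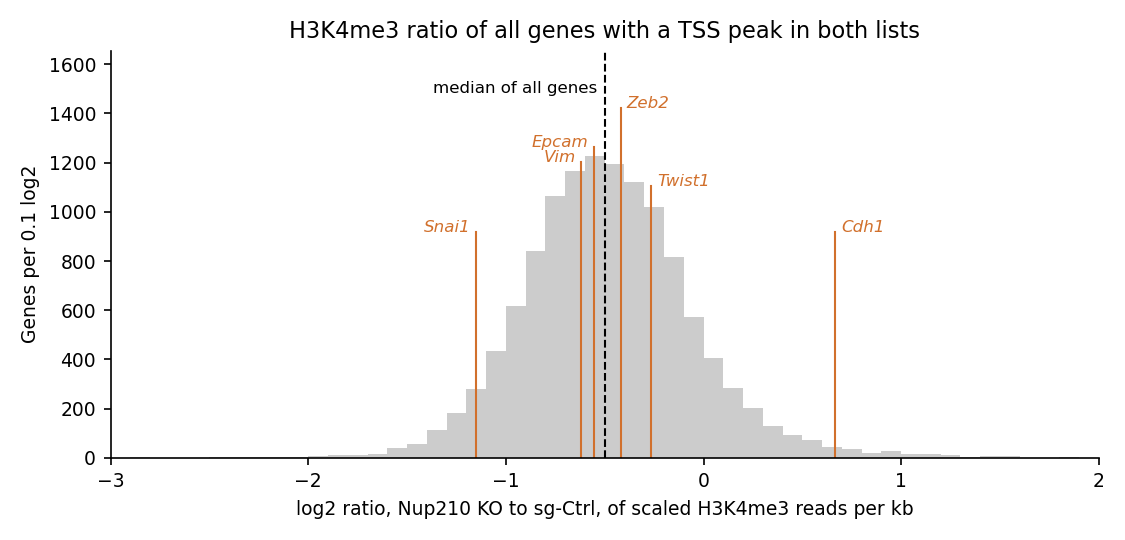
Distribution over 12197 genes of the log2 ratio, KO over sg-Ctrl, of scaled H3K4me3 reads per kb of TSS peak (x axis), with the number of genes on the y axis and a line for each of 6 members. The dashed line marks the median, -0.50. Epcam, Vim and Zeb2 lie near it, Snai1 at -1.15 and Cdh1 at 0.67, where the total of reads in the Cdh1 peak gives -0.30.

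H3K4me3 covered the promoter windows of Snai1, Epcam and Twist1 in both lines. It also covered those of Vim and of the Zeb2 start site at chr2:45110277, which are not printed. H3K27me3 moved off the window of Twist1. The promoter sequences of Snai1, Epcam and Twist1 are shown. Each is the 250 bases before the RefSeq start site (GRCm38.p6, plus strand), and capitals mark the E-box CANNTG. Its palindromic frame reads the same on both strands, and the forms bound by SNAI and ZEB factors, CACCTG and CAGGTG, are a subset of it.
Snai1, chr2:167537945-167538194: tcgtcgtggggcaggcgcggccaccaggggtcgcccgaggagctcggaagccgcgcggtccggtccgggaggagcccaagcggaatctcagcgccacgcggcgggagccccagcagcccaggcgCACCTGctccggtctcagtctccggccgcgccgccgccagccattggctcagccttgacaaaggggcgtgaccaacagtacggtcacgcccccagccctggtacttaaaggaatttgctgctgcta
Epcam, chr17:87635729-87635978: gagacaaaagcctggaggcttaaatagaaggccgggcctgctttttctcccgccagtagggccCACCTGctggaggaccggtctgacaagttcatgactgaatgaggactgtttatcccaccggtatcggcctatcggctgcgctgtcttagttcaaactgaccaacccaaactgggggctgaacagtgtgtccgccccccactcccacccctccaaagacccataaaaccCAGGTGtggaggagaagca
Twist1, chr12:33957421-33957670: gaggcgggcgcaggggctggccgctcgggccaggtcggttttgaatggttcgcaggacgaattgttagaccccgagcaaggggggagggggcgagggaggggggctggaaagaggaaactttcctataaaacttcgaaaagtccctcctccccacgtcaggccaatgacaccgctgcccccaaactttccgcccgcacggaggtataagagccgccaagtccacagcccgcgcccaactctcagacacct
The Snai1 sequence holds 1 E-box, CACCTG, 126 bases before the start site. The Epcam sequence holds CACCTG 187 bases and CAGGTG 19 bases before it. The Twist1 window has no CANNTG, nor do those of Vim, Zeb2 and Twist2. Of 32851 windows of this length in the table, 66.2% held a CANNTG and 17.2% a CACCTG or CAGGTG. The windows of Snai1 and Twist1 had 27 and 18 CpG dinucleotides and that of Epcam 8, against a median of 6. These matches are letters in a window, not measured binding sites. Windows for 6 of the 10 genes were matched by symbol.

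H3K27me3 lay on 3 of the 10 genes in sg-Ctrl, Snai2, Zeb1 and Twist1, and on Snai2 alone in KO. For comparison, 26.8% of listed genes had an H3K27me3 peak in sg-Ctrl and 27.6% in KO. Of the genes with the mark in either list, 12.6% had it in sg-Ctrl alone and 15.1% in KO alone. The epithelial genes Cdh1 and Epcam, and Snai1, Zeb2 and Vim, were paired with none in either line.

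Snai2 (NM_011415, chr16:14705859-14709382, plus strand) encodes SLUG, a factor of mammary basal and stem cells. It lay wholly inside 1 H3K27me3 island in both lines and had no H3K4me3 peak in either. The island spanned 31 kb in sg-Ctrl, from 11.9 kb upstream of the TSS to 19.1 kb downstream, and 35 kb in KO, where its upstream edge was at 15.9 kb. It held 1557 reads in sg-Ctrl, at a fold over IgG of 3.55, and 6055 in KO, at a fold of 4.29. Scaled by library size, the density was 59.3 reads per kb against 64.6 in KO, above 91.3% and 96.3% of the genes with the mark. The log2 ratio per kb was 0.12 (0.04 to 0.21), where the median over 4234 genes with the mark in both lists was -0.13. With scaling to shared peaks it was -0.00 (-0.08 to 0.08), so the levels differed by less than the choice of scaling moves them. In both lines the island was dense beside those of other marked genes.

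Twist1 and its neighbor Ferd3l, another basic helix-loop-helix gene, shared an H3K27me3 island in sg-Ctrl of 59 kb, from 56.7 kb upstream of the Twist1 TSS to 2.33 kb downstream. It held 2787 reads at a fold of 4.19 and covered the Twist1 gene, and it overlapped the H3K4me3 peak of Twist1 by 3.6 kb. In KO the island was 74 kb long, from 75.7 to 1.67 kb upstream of the TSS, held 9144 reads at a fold of 3.33, and was paired with Ferd3l alone. Per kb of island this was 55.8 scaled reads against 46.2 in KO. The island therefore did not disappear from the region. Its edge next to Twist1 lay 4 kb farther upstream and ended 0.6 kb before the H3K4me3 peak, in windows of 1000 bp. All 250 bases of the Twist1 promoter printed above lay under H3K27me3 in sg-Ctrl and 0 in KO, while all 250 lay under H3K4me3 in both. Of 296 genes with H3K4me3 in both lines and a start site under an H3K27me3 island in sg-Ctrl, 131 (44.3%) were not under one in KO, so Twist1 was no exception among them. This set was defined after the values were seen.

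Zeb1 (NM_011546, chr18:5591860-5775468, plus strand), 183.609 kb long, had no H3K4me3 peak in either line. In sg-Ctrl it had 4 H3K27me3 islands inside the gene, of 19, 4, 32 and 8 kb, which together covered 34.3% of it. They held 443, 154, 683 and 233 reads, at folds over IgG of 1.88, 4.92, 1.78 and 4.83. The level was 28.4 scaled reads per kb, above 23.0% of the genes with the mark, so these islands were sparse beside that of Snai2. In KO none was listed on Zeb1, in a library 3.16 times as large. Outside the gene, within 1000 kb of Zeb1, 3 islands were listed in sg-Ctrl and 1 in KO. Fewer were also listed in KO around Twist1 (18 and 12), Zeb2 (13 and 7) and Vim (13 and 8), whereas around Snai2 there were 7 in each and around Cdh1 2 in each. The whole KO list was shorter too, with 8874 islands against 9555 in sg-Ctrl, at a median width of 15000 against 14000 bp. No share over all genes is given for these local counts, and whether islands merged in KO was not tested. Of 495 genes of at least 100 kb that the mark covered at least as far as Zeb1, 9 (1.82%) had none in KO, whereas 14.8% of all 4971 marked genes had none. The former set was defined after the values were seen. Its lower bound was the covered share of Zeb1 itself, Zeb1 is counted among the 9, and density was not matched. The share therefore does not measure how unusual Zeb1 was. Without a KO read count on these islands, no ratio can be given.

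Around the genes without the mark, the nearest listed island lay 36.2 kb from Vim in sg-Ctrl and 48.2 kb in KO. It lay 268 and 267 kb from Cdh1, and 557 kb from Zeb2 in both lines. Within 1000 kb of Snai1 and of Epcam none was listed. The lists hold only islands that touch a gene body, so islands between genes are not counted.

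**Figure D3:**
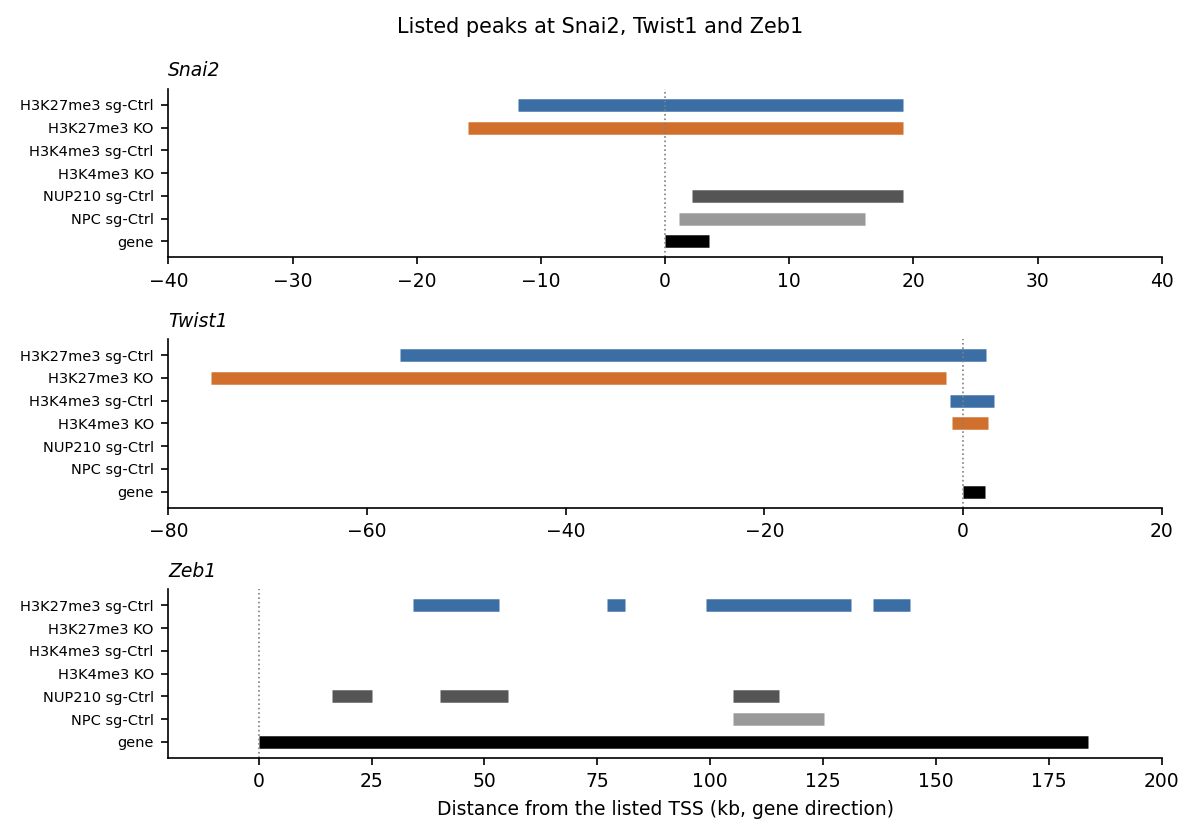
Peaks of the 6 lists around Snai2, Twist1 and Zeb1, by distance in kb from the TSS (x axis), with one row per list and the gene as a bar. Snai2 lies inside an island of H3K27me3 in both lines, the island next to Twist1 ends 2.33 kb downstream of its TSS in sg-Ctrl and 1.67 kb upstream of it in KO, and the 4 islands of Zeb1 have no counterpart in the KO list.

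NUP210 was listed on 4 of the 10 genes, Snai2, Zeb1, Zeb2 and Vim, and NPC on the first 3 of these. Among all listed genes 33.9% had a NUP210 peak and 30.8% an NPC peak. Snai1, Twist1, Cdh1 and Epcam had neither. The enrichments were small. Over the whole lists the median fold over IgG was 1.19 for NUP210 and 1.10 for NPC, and 31.0% and 48.3% of peaks had an FDR above 0.05.

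Zeb2 had the longest NUP210 coverage in kb, while Vim had the largest share, at 68.4% of its short gene body. The 2 NUP210 peaks of Zeb2 covered 86.4 kb, or 66.6% of the gene, at folds of 1.22 and 1.30, with deposited FDRs of 1.9e-17 and 1.4e-07. Its 4 NPC peaks covered 78.2%, at folds of 0.942, 1.01, 1.24 and 1.25, of which the last 2 had FDRs of 2.5e-06 and 0.00056. No H3K27me3 peak of sg-Ctrl overlapped any of them.

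Zeb1 had 3 NUP210 peaks over 18.5% of the gene, at folds of 0.926, 1.06 and 1.50, and only the third had an FDR under 0.01, at 1.7e-09. Its single NPC peak had a fold of 1.07 (FDR 0.15). These peaks lay largely on the H3K27me3 islands of sg-Ctrl cells. Of the 9, 15 and 10 kb of the NUP210 peaks, 0, 13 and 10 kb overlapped an island, and all 20 kb of the NPC peak did.

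Snai2 had 1 NUP210 peak at a fold of 1.06 (FDR 0.16) and 1 NPC peak at a fold of 1.17 (FDR 0.0078), both over the end of the gene and downstream. All 17 kb of the former and 15 kb of the latter were inside the H3K27me3 island. Vim had 1 NUP210 peak, at a fold of 1.09 (FDR 0.12), and no NPC peak. At an FDR of at most 0.01, NUP210 remained on Zeb1 and Zeb2, and NPC on Snai2 and Zeb2. No member had a peak of either at a fold of 2.

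**Figure D4:**
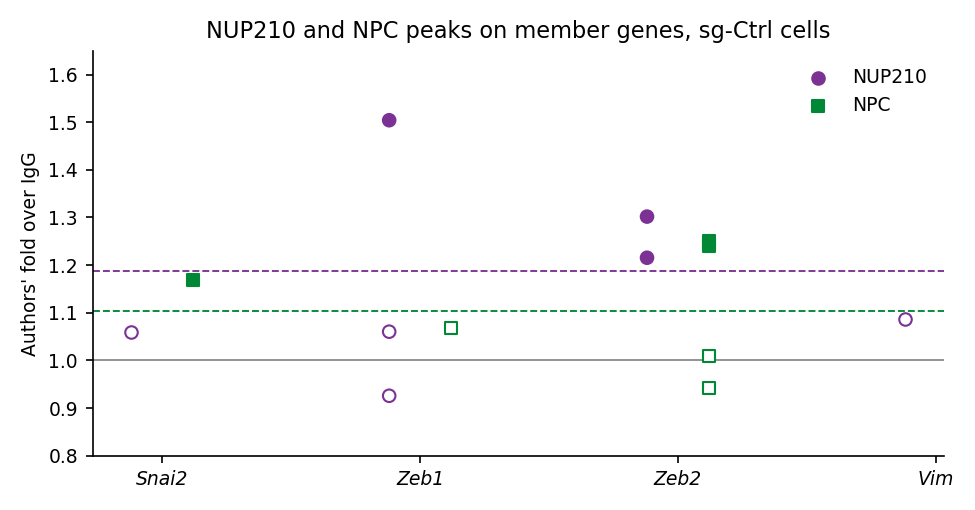
Fold over IgG (y axis) of each NUP210 and NPC peak on Snai2, Zeb1, Zeb2 and Vim in sg-Ctrl cells. Each point is 1 peak, filled where its FDR is at most 0.01, the dashed lines are the medians of the 2 lists (1.19 and 1.10), and the line at 1 marks equality with IgG; all points lie at or under 1.50.

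Twist2, which encodes a close relative of TWIST1, and Cdh2, the N-cadherin gene, had no peak in the lists for any antibody. Zeb1 and Snai2 also lacked H3K4me3, so 4 of the 8 genes of the mesenchymal side (Snai2, Zeb1, Twist2 and Cdh2) had none. Both genes of the epithelial side had it. Among genes in any list, 67.1% had such a peak in sg-Ctrl and 67.0% in KO, a background that leaves out Twist2 and Cdh2. With so few genes, no difference between the sides is drawn. RNA levels were not analysed here.

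A wider set of 128 EMT and epithelial genes placed the panel in its pathway. Of these, 119 had a peak in at least 1 list and 100 an H3K4me3 peak in both lines. Of the 100, 11 (11%) were at least 2-fold lower in KO, beside the background of 9.66%, and none was at least 2-fold higher, beside 0.525%. Lower in KO by any amount were 86 (86%), beside 88.7%, and the same background applies to the counts under a ratio of 1 in each list. The median log2 ratio was -0.37, against -0.50 for all genes. Under scaling to shared peaks the median was 0.05, and 1 gene, Smad4, was 2-fold lower.

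Among 10 further EMT transcription factors with H3K4me3 in both lines, 9 had a ratio under 1 and 1 was 2-fold lower. This was Sox4, a SOX family factor, with 3266 reads in sg-Ctrl and 794 in KO, over peaks of 6.2 and 2.6 kb (log2 per kb -1.13). Among 12 epithelial transcription and splicing factors, 10 were under 1, with a median of -0.27. Trps1, a GATA-type repressor of luminal cells, was 2-fold lower, with 61829 reads in sg-Ctrl and 35356 in KO (log2 -1.14). The grainyhead factor Grhl1 and the zinc finger factor Ovol2, both upholders of the epithelial state, had log2 ratios of 0.64 and 0.32. Grhl1 rested on 183 reads in sg-Ctrl and 497 in KO. Relative to the median of all genes these were 1.14 and 0.82 higher. Their relatives in the list, Grhl2 and Ovol1, were at -0.29 and -0.46, which is 0.21 and 0.04 above that median.

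Most cell junction genes with an H3K4me3 peak had it in both lines, apart from Pvrl4 and Dsc2, which had it in sg-Ctrl alone. Of 9 adherens junction partners 8 were under a ratio of 1 and none was 2-fold lower, with a median of -0.60. Ctnnb1, which encodes the beta-catenin that binds E-cadherin, was at -0.73, and Cdh3, encoding P-cadherin, had 47 reads in sg-Ctrl and 72 in KO. Of 19 tight junction and polarity genes 17 were under 1 and Tjp1, encoding the scaffold ZO-1, was 2-fold lower, with 3365 reads in sg-Ctrl and 2165 in KO (-1.08). Among 5 desmosome genes the plakophilin gene Pkp2 was 2-fold lower, with 5800 and 4144 reads (-1.19). Of 13 other epithelial surface genes 3 were 2-fold lower. These were Cd24a (5285 and 3663 reads, -1.13), the keratin gene Krt14 (280 and 146 reads, over peaks of 3.4 and 2.8 kb) and the small GTPase gene Rab25. In Rab25 reads went from 3366 to 4020 and the peak widened from 4.8 to 9.8 kb, so its ratio per kb of -1.12 is a matter of width. The peaks of Tjp1, Pkp2 and Cd24a were also wider in KO. In total reads their log2 ratios were -0.98, -0.83 and -0.87, short of a 2-fold difference.

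Of 11 mesenchymal genes with H3K4me3 in both lines, 10 were under a ratio of 1, beside 88.7% of all genes. Sparc, a matrix glycoprotein gene, had 2862 reads in sg-Ctrl and 1397 in KO (-1.29). Tnc, the tenascin C gene, had 335 and 156 (-1.26). The fibronectin gene Fn1 was at -0.54, near the median of all genes. In the TGF-beta route, an inducer of EMT, the median over 9 genes was -0.76. Whether genes of this list share a chromosome was not examined. A shift of a whole chromosome in the KO clone was therefore not tested, for this median or for single genes such as Smad4. Smad4, the common mediator, had 4430 reads in sg-Ctrl and 2238 in KO (-1.44). The ligand genes Tgfb1, Tgfb2 and Tgfb3 were at 0.17, 0.26 and -0.81 per kb. In total reads they were at 0.02, -0.02 and 0.15, so the ligand genes had no common direction. All 10 corepressor genes of SNAI and ZEB factors were under 1, beside the same 88.7%. Their median was -0.44, near the -0.50 of all genes. Among them Suz12, a Polycomb subunit, had 7536 and 4353 reads (-1.25).

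**Figure D5:**
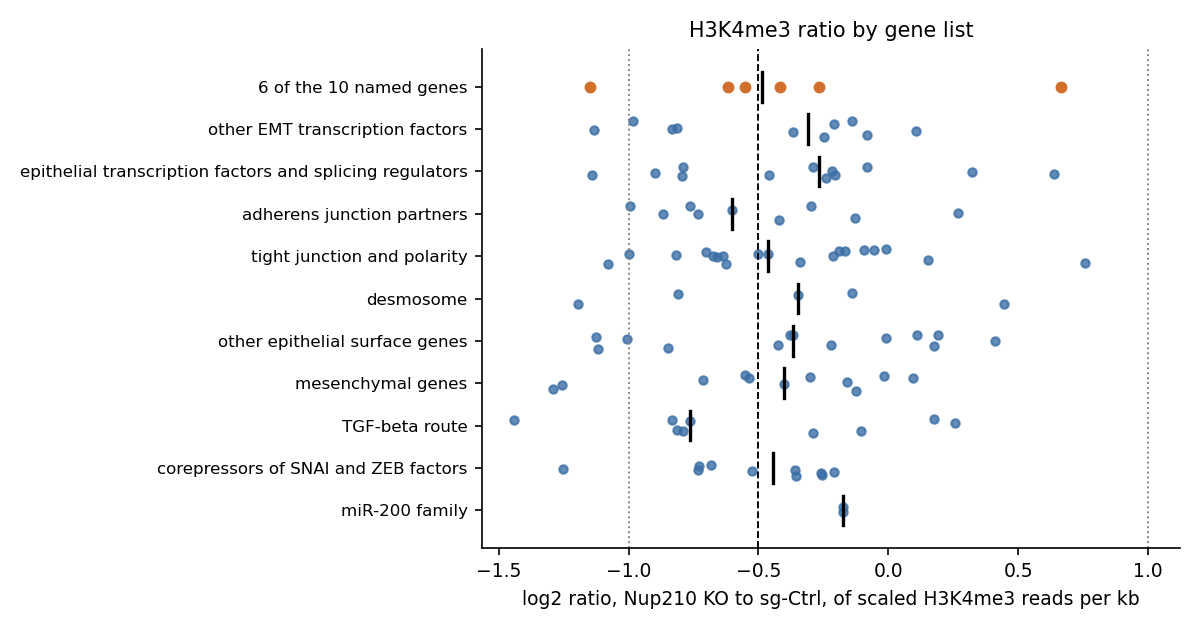
Log2 ratio, KO over sg-Ctrl, of scaled H3K4me3 reads per kb of TSS peak (x axis) for the genes of each list with a peak in both lines. Each point is 1 gene and the black ticks are list medians. The dashed line is the median of all genes and the dotted lines mark a 2-fold difference. The median is lowest for the TGF-beta route (-0.76) and no gene is 2-fold higher. Whether genes of a list share a chromosome was not examined.

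H3K27me3 lay on 12 of the 119 listed genes of the wider set (10.1%) in each line, 11 of them in both, where the background was 26.8% in sg-Ctrl and 27.6% in KO. The covered share of the gene body went from 35.0% to 93.6% at Col1a2, a fibrillar collagen gene, and from 0% to 100% at the claudin gene Cldn1. The scaled density of the mark at Col1a2 was 50.5 reads per kb of peak against 35.3 in KO, so a larger share was covered at a lower density. Among epithelial transcription factors it went from 4.52% to 48.8% at Tfap2c, from 42.2% to 82.4% at Ehf and from 46.3% to 69.2% at Elf5. The density was 54.3 against 25.9 in KO at Tfap2c, 25.4 against 43.9 at Ehf and 26.8 against 34.9 at Elf5. At Esrp1, an epithelial splicing regulator, it went from 8.74% to 0%. At the desmosomal cadherin gene Dsg3 it went from 31.3% to 12.9%. These are differences between 2 lists of unequal depth, with 1 library each.

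At the miR-200 genes the 2 lines differed in which peaks were listed. Their mature sequences are shown, from RefSeq (GRCm38.p6), because the family splits by its seed, bases 2 to 8, which pairs with target mRNAs such as those of Zeb1 and Zeb2. Capitals mark the seed.
miR-200b-3p: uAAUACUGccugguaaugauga
miR-200c-3p: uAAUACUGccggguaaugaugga
miR-429-3p: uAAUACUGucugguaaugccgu
miR-200a-3p: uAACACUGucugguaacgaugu
miR-141-3p: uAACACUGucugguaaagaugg
The first 3 share the seed AAUACUG and the last 2 the seed AACACUG. Both seeds are encoded at each of the 2 loci. Mir200b, Mir200a and Mir429 lie together on chromosome 4, and Mir200c and Mir141 on chromosome 6.

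Mir200b, Mir200a and Mir429 shared 1 H3K4me3 peak in sg-Ctrl, chr4:156057401-156060400, with 2116 reads (95% interval 2027 to 2208) against 27 IgG reads and a fold of 73.9. No peak was listed for any of the 3 in KO, and the nearest listed KO peak lay 48.4 kb away. A TSS peak in sg-Ctrl alone was found at 2.02% of the 12693 genes with one in either list. Their 243 distinct peaks had a median of 76 reads, and 10 of them, this one among them, had 2116 or more. The flanking gene Sdf4 kept its peak, with 2080 reads in sg-Ctrl and 1684 in KO (log2 -0.29), as did 9430015G10Rik, with 1911 and 1210 (-0.90). The lists hold only peaks that reach a 4 kb window of a start site, and the KO reads at this place were not analysed here, so no ratio is given. At the other locus, Mir200c and Mir141 were paired with 2 peaks in each line. The one over both start sites had 2346 reads in sg-Ctrl and 2676 in KO, over 4.6 and 5.0 kb. The other, with more reads per kb and so the one used for the ratio, lay downstream of both genes and is also paired with Phb2 and Emg1. It had 3853 and 4014 reads over 5.4 and 5.0 kb (log2 -0.18). The peak was thus absent from the KO list for 3 of the 5 miR-200 genes, at 1 of the 2 loci. The desmosomal cadherin gene Dsc2, with 423 reads, and the nectin gene Pvrl4, with 60, also had a TSS peak in sg-Ctrl alone. No gene of the wider set had one in KO alone, where the background was 1.89%.

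The genes most like a member over 6 measures, H3K4me3 in both lines and the covered share of the gene body in the 4 other lists, were sought among 12197 genes. For Cdh1 these were Trim27 and Bub3, at standardized distances of 0.14 and 0.25. For Twist1 they were Amigo2 and Nog, farther away at 1.08 and 1.09.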

How the data were processed

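Peak lists of 6 ChIP-seq libraries of 4T1 cells were analysed. Per the study's methods, the authors called peaks in each library with SICER, in windows of 200 bp for H3K4me3 and 1000 bp otherwise. IgG served as the control. The submitters' processing notes name Bowtie2 among the tools and mm9, mm10 and NCBIM37 as builds; the listed gene positions match mm10. The authors deposited ChIP and IgG read counts (raw), p-values with FDR, fold over IgG (a ratio scaled by library size) and overlaps in bp. The ratio of ChIP to IgG library size was recovered from counts and fold, and ChIP reads were divided by it. For a gene with several TSS peaks, the one with most reads per kb was used. Called means at least 2-fold. Intervals are 95%, exact Poisson for reads and Clopper-Pearson of the read split for ratios, and cover counting error only. Total depth beyond these ratios is unknown. No test was possible with 1 library per condition.

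The members, lists and comparisons were chosen with earlier results of these data known. All members are named; of the wider lists, at most 4 genes per list and direction past 2-fold (at least 100 reads) or with the largest H3K27me3 change, plus others chosen after their values were seen, which are those printed with ratios inside 2-fold, the miR-200 genes, Dsc2 and Pvrl4. Alternatives varied scaling, measure, peak choice and peak thresholds. Scripts (Python 3.11.15, pandas 2.3.3, scipy 1.17.1) were tested on simulated data. Sequences are from RefSeq (GRCm38.p6). RNA-seq (4 samples) was not analysed here, and the 3 IgG samples entered only through the deposited IgG counts.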

Additional observations from a re-analysis of the deposited data

How the results depend on the processing

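Of 122 recomputed values over 21 results, 79 moved by less than the counting interval or 1.5 times the count, and 43 moved further. The number of members at least 2-fold lower in H3K4me3, 1 with reads per kb scaled by library size, was 0 with scaling to shared peaks, 0 without scaling and 3 with total reads. The number 2-fold higher was 0, and 1 with shared peaks and without scaling. Lower by any amount were 5 members, and 3 with shared peaks and with the deposited fold. In the wider set, 11 genes were 2-fold lower, and 1 with shared peaks and without scaling. None was 2-fold higher, against 2 with shared peaks, 1 without scaling, 2 with total reads and 2 with the fold. Lower by any amount were 86, against 46 with shared peaks and 54 without scaling. The shares of all genes given above, 9.66%, 0.525% and 88.7%, hold for reads per kb scaled by library size. No such share is given for the alternatives, so these counts cannot be set against a background. NUP210 was on 4 members, 2 at an FDR of at most 0.01 and 0 at a fold of at least 2, and NPC on 3 and 0 at that fold. In the wider set the same fold left NUP210 on 3 of 33 genes and NPC on 0 of 30. The H3K27me3 member counts, 3 and 1, were equal under each alternative. Over all alternatives the log2 ratio of Cdh1 ranged from -0.30 to 1.09, Epcam from -1.11 to 0.25, Snai1 from -1.22 to -0.73, Twist1 from -0.56 to 0.77, Vim from -1.02 to -0.20 and Zeb2 from -0.42 to 0.00, so the signs of Cdh1, Epcam and Twist1 depend on the measure, and Zeb2 was marginally above 0 with shared peaks. The total reads of the Snai2 island, chosen after seeing the data, gave 0.30. The cause of these shifts was not tested. No paired analysis was possible because each ChIP condition rests on 1 library and RNA-seq was not analysed here. The KO line is 1 clone, so clone and genotype cannot be told apart. The paper describes these cells as aneuploid, and no ratio or peak list was corrected here for chromosome copy number. Whether a shift of a whole chromosome contributed to a difference was not tested.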
